A study of Mus musculus with 6 samples.

Results

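The regions described here are stretches of accessible chromatin that most of 6 mouse stem cell peak lists called and that lie far from any protein-coding gene. Peaks on chromosomes 1 to 19 of all lists were merged where they overlapped by at least 1 bp, which gave 844567 regions. Of these, 30130 were called in 4 or more lists and are referred to as shared regions. The 1551 far regions, 5.15% of the shared ones, lay outside every protein-coding gene body and at least 100 kb from the nearest end of such a gene. Calls and position chose these regions, so the number of lists that called a region is a description and was not tested.

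Accessibility was measured with ATAC-seq, an assay whose transposase inserts sequencing tags into open DNA, in long-term haematopoietic stem cells (LT-HSC) of C57BL/6 mice. Such cells renew the blood for life; from marrow they were isolated here as lineage-negative, Kit-positive, Sca1-positive cells without Flk2 or Cd34. Cells of both ages stayed overnight at 3% oxygen in a salt solution with serum before the assay, and cells assayed straight after sorting were not analysed. The aged group comprised 3 samples and the young group 3, with 1 peak list per sample. Neither exact age nor sex is labelled, nor is it stated that each sample stems from its own animal; the p-values therefore rest on a spread between samples that may be technical.

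Open regions far from genes are often enhancers, stretches of DNA that bind transcription factors and raise transcription of a gene that can lie far away on the same chromosome. Others are insulators bound by CTCF, or starts of non-coding RNA genes. Which gene an enhancer serves cannot be read from position alone, and for that reason each region is described by the nearest protein-coding gene on either side. Strength was read as a percentile, the rank of a region's −log10 p among all distinct peaks of its own list, where 100 is the strongest peak. The mean percentile of a region is taken over all 6 lists, with a list that made no call counted as 0.

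A few of the far regions sat on annotated starts of non-coding genes, and for these the DNA sequence can be shown. Of the 1551 regions, 52 (3.35%) overlapped a window of 300 bases around such a start (250 bases before it and 50 after), with 59 windows of 53 genes in all. Each of the 53 genes is annotated as a long non-coding RNA (lncRNA). Sequences of 4 windows follow from RefSeq on GRCm38.p6, each 5′ to 3′ on the strand of its gene and chosen after their values were seen, for their strength or because the lncRNA has a described role. Capitals mark matches, on either strand, to 7 short motifs that are recognised by factors of blood cells or common in promoters: TGANTCA for AP-1, AGATAA for GATA factors, TGTGGT for RUNX factors, AGGAAG for ETS factors, CAGCTG for E-box factors, GGGCGG for the GC box and CCAAT for the CCAAT box.
Gm26901: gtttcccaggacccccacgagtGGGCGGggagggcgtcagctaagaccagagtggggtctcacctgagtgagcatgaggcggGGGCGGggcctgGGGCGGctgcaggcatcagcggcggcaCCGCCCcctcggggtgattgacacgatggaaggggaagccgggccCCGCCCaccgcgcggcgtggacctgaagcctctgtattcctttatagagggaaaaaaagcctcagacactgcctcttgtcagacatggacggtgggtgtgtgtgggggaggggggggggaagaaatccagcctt
Dubr: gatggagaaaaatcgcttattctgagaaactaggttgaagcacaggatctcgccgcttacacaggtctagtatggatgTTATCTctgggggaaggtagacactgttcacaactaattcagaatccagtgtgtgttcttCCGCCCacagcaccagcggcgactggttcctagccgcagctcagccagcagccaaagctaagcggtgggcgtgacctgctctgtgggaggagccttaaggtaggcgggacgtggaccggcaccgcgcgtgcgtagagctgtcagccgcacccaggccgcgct
Morrbid: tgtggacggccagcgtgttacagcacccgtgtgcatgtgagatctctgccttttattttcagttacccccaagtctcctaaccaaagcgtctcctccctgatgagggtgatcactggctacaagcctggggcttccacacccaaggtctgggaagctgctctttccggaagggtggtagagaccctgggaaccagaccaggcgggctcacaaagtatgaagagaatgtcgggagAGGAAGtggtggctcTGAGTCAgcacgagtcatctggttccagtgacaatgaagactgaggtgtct
Mir100hg: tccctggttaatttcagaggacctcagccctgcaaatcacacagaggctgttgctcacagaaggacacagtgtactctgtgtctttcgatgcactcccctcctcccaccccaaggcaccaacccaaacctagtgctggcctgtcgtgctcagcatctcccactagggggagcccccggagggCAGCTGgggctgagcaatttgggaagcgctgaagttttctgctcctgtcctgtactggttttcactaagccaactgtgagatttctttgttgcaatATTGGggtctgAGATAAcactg

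The Gm26901 window (chr1:7398047-7398346, minus strand) lay entirely inside a region between Pcmtd1 and Sntg1, 224 kb and 961 kb from these genes. That region reached the 99.6, 99.0 and 98.4 percentiles in the 3 aged lists and the 98.9, 80.3 and 98.2 percentiles in the 3 young lists. Its window held 5 GC boxes and 18 CpG dinucleotides and had a GC content of 65.7%, above the median of all windows given below. The region on the Dubr window (chr16:50732724-50733023, minus strand) stood 141 kb from Ccdc54 and 1298 kb from Cblb. Its percentiles were 93.4, 94.6 and 96.3 in aged lists, against 97.8, 22.3 and 96.7 in young lists. Young replicate 2 was the low value, and the other 5 lists were close together.

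Morrbid is a lncRNA that in mice restrains transcription of its neighbour Bcl2l11, a gene for a protein that promotes cell death, and so sets the lifespan of short-lived myeloid cells. Its window (chr2:128429302-128429601, minus strand) lay in a region 266 kb from Bcl2l11 and 162 kb from Spdye4c. Every list but aged replicate 3 called this region. Its percentiles were 58.5 and 85.7 in aged replicates 1 and 2, against 90.7, 55.6 and 81.8 in young lists. The window held 1 AP-1 motif and 1 ETS motif. Mir100hg is the host transcript of a microRNA cluster. Its window (chr9:41474643-41474942, plus strand) overlapped, by 245 of its 300 bases, a region between Ubash3b and Gm40514 that was also called in 5 lists, at the 44.1 and 79.3 percentiles in aged replicates 1 and 2 and the 65.0, 73.1 and 78.6 percentiles in young lists. It held a GATA motif, an E-box and a CCAAT box.

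The mature microRNAs miR-100-5p and miR-125b-5p, encoded inside Mir100hg, have described roles in blood stem cells or leukaemia, and their hairpins began 56.4 kb (Mir100) and 107 kb (Mir125b-1) from the region. Another hairpin, Mir3072, lay 1.74 kb from a far region between Rtl1 and Dio3 on chromosome 12, in an imprinted domain rich in small RNAs. The RefSeq mature sequences follow, with the seed (bases 2 to 8, which pair with target RNAs) in capitals.
miR-100-5p: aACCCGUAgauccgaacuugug
miR-125b-5p: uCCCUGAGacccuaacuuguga
miR-3072-5p: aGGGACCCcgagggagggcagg
miR-3072-3p: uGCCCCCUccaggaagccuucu
No seed was shared among these. The Rtl1 to Dio3 region (chr12:109749704-109750294) was among the strong ones, at the 99.6, 97.1 and 98.7 percentiles in aged lists and the 97.5, 88.8 and 97.1 percentiles in young lists. ATAC-seq does not measure the microRNAs themselves.

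Among the 59 windows, the AP-1 motif occurred in 11 (18.6%), against 7.85% of the 31365 RefSeq windows used here and 10.4% of the 2014 windows that lie 100 kb or more from a protein-coding gene. The RUNX motif occurred in 28.8%, against 16.7% and 20.1%. The ETS motif occurred in 47.5%, against 35.1% and 35.8%. The GC box occurred in 23.7%, against 36.0% and 5.61%. GATA motifs stood at 18.6%, 11.2% and 18.0%, E-boxes at 18.6%, 16.3% and 15.5%, and CCAAT boxes at 42.4%, 37.3% and 39.7%. Median GC content was 49.3% in the overlapped windows, 53.0% in all windows and 45.0% in far windows, and motif frequencies follow base composition. These shares describe letters in a window and were not tested.

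The lists differed in how many far regions they called. Aged replicates 1, 2 and 3 called 1447, 1478 and 705 of the 1551 regions (93.3%, 95.3% and 45.5%), and young replicates 1, 2 and 3 called 1422, 646 and 1455 (91.7%, 41.7% and 93.8%). The 95% Wilson intervals of these shares were at most 4.95 percentage points wide and cover counting error only. Aged replicate 3 and young replicate 2 thus stood apart within their own ages. The same lists called fewer of all shared regions too, 58.7% and 51.2%, against 93.0% to 98.0% in the other 4. Young replicate 2 also held only 200 distinct p-values among its 254876 peaks, so many of its peaks tie in rank. Read depth is unknown.

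Of the far regions, 248 (16.0%) were called in all 6 lists, 453 in 5 and 850 in 4. Among all shared regions the share called in all 6 was 31.1%, and it was 17.8% for regions 5 to 100 kb from a gene, 20.7% for regions inside genes more than 1 kb from their ends, and 52.2% for regions within 1 kb of a gene end. The commonest pattern was a call in 2 aged and 2 young lists, with 678 regions (43.7%, against 31.3% of all shared regions). Calls in 3 aged and 1 young list (94 regions) and in 1 aged and 3 young lists (78 regions) were the least common, at 6.06% and 5.03% of far regions and 3.59% and 3.44% of all shared regions. For the 453 regions in 5 lists, the missing list was aged replicate 3 in 179 (39.5%, against 32.7% of all shared regions in 5 lists) and young replicate 2 in 249 (55.0%, against 61.7%).

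The mean percentile of the far regions had a median of 56.7, with quartiles of 45.8 and 71.4 and a range from 7.53 to 99.3. Its median was 87.2 for regions in all 6 lists, 67.3 for regions in 5 and 48.1 for regions in 4. Each missing call enters the mean as 0, so this order is built in. Equally distant regions called in 3 lists, just outside the rule, numbered 1982 and had a median of 26.4. A mean percentile of 90 or more, which only a region called in all 6 lists can reach, was found in 95 far regions (6.13%), against 7.46% of shared regions at 5 to 100 kb and 17.6% of all shared regions, so these shares largely follow the shares called in all 6 lists. The far regions were 521 bp wide in the median, from 215 to 1969 bp, close to the 527 bp of regions at 5 to 100 kb and below the 774 bp of regions at gene ends.

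The strongest far region (chr10:66864179-66864923) lay between Ctnna3, an alpha-catenin gene, and Reep3, whose product shapes the endoplasmic reticulum, 1861 kb from the first and 144 kb from the second. It stood at the 99.1, 99.8 and 99.8 percentiles in aged lists and at the 99.9, 97.3 and 99.8 percentiles in young lists. The authors' fold enrichments there were 11.1, 18.5 and 11.3 in aged lists, against 15.4, 4.13 and 22.4 in young lists. These fold values depend on depth and were used only within a list. The lowest percentile of this region was that of young replicate 2, and the other 5 lists placed it above the 99 percentile.

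The next by mean percentile ranged from 99.1 down to 98.5, and those named here were called in all 6 lists. They lay between Uaca and Tle3 on chromosome 9, Serp2 and Lacc1 on chromosome 14, Haao and Zfp36l2 on chromosome 17 (2 regions), Zfat and Khdrbs3 on chromosome 15, Map3k1 and Ankrd55 on chromosome 13, Pdgfc and Ctso on chromosome 3, and Akr1e1 and Klf6 on chromosome 13. Of the flanking genes, Tle3 is a Groucho-type corepressor, Klf6 and Zfat are zinc-finger transcription factors, and Zfp36l2 is an RNA-binding protein that speeds mRNA decay and that mice need for definitive haematopoiesis. The Uaca to Tle3 region (chr9:60998679-60999558) stood at 99.4, 99.2 and 98.7 in aged lists, against 99.9, 97.6 and 99.6 in young lists.

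Far regions were compared in strength with the other shared regions, which meet the same rule on calls. The classes differ in position, but also in the share called in all 6 lists and in width, as given above. In aged replicates 1, 2 and 3 the median percentile of the far regions called was 90.1, 83.4 and 75.8, and in young replicates 1, 2 and 3 it was 90.5, 73.1 and 80.3. Shared regions at 5 to 100 kb stood at 91.3, 84.3 and 81.7 in aged lists and at 92.1, 73.1 and 81.3 in young lists. Far regions were thus lower in 5 of 6 lists and tied in young replicate 2, where the median of both fell on the same tied value. The mean difference was −1.77 ± 2.09 points (SD, n = 6 lists), and an exact 2-sided sign-flip permutation test gave p = 0.0625 (adjusted p = 0.0625 over 3 comparisons). With the tie in young replicate 2, 0.0625 is the smallest p this exact permutation test could give, so it could not reach 0.05. Aged replicate 3 gave −5.91 of this and the other lists 0 to −1.58.

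Against shared regions inside genes the difference was −2.38 ± 2.53 points, and against regions at gene ends −9.09 ± 6.61 points, each again lower in 5 of 6 lists with a tie in young replicate 2 (p = 0.0625 and adjusted p = 0.0625 for each, again the smallest the exact permutation test could give with the tie). With the mean of the percentiles in place of the median, an alternative chosen after seeing the data, far regions were lower in all 6 lists, by 1.92, 2.74 and 12.6 points against the 3 classes, each with p = 0.03125, the smallest the exact permutation test can give. When the members were chosen again from 5 lists, leaving out each list in turn, the median difference shrank to between −0.703 and −0.207 for regions at 5 to 100 kb, between −1.47 and −0.751 for regions inside genes, and between −8.85 and −6.29 for gene ends, whichever list was left out. With only regions called in all 6 lists, the median differences were −0.181, −0.590 and −5.60 points in the same order. Regions at gene ends were thus the class from which far regions differed by the most points.

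**Figure D1:**
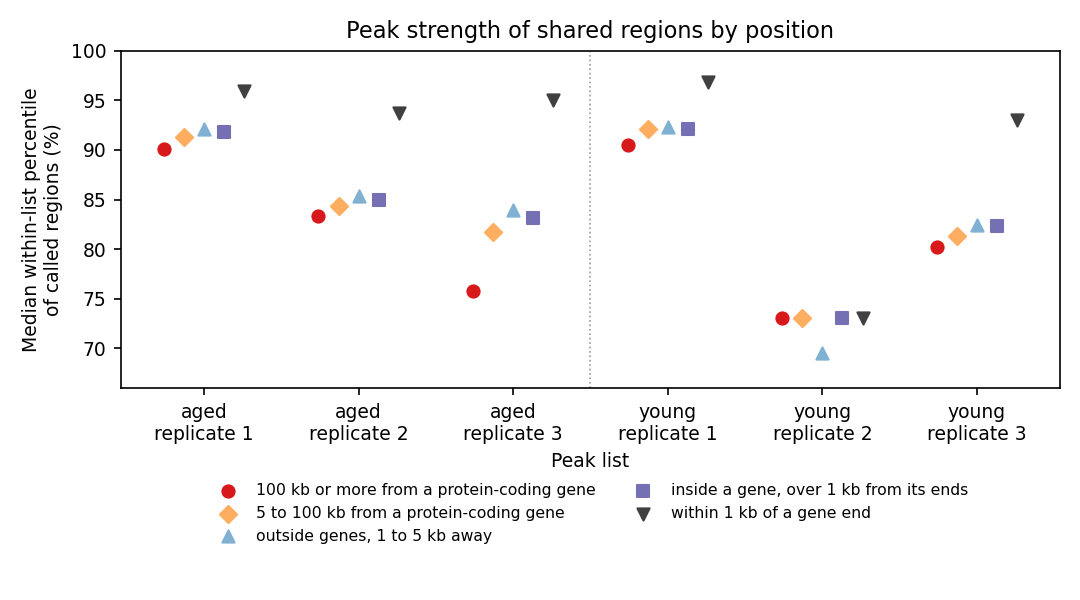
Median within-list percentile (y axis, %, from 66 to 100) of the called shared regions of each position class, in each aged list (left) and young list (right). Far regions (red circles) lie below the other classes in 5 lists, by most in aged replicate 3 (75.8 against 81.7 for regions at 5 to 100 kb), while in young replicate 2 most classes share the tied value of 73.1.

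No difference in strength between the ages passed a test. The median percentile of the far regions averaged 83.1 ± 7.16 in aged lists and 81.3 ± 8.75 in young lists (SD, n = 3 each), a difference of 1.79 points (exact 2-sided permutation test, p = 0.8, where 3 against 3 lists cannot go below 0.1). Without young replicate 2 the difference was −0.0490. Relative to shared regions at 5 to 100 kb in the same lists, far regions stood at −2.68 ± 2.80 points in aged lists and −0.865 ± 0.799 points in young lists (difference −1.82, exact permutation p = 0.5), and this difference turned to between −0.0669 and 0.706 when any list was left out.

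The 248 far regions in all 6 lists were also tested individually, in a limma fit over all 9376 regions that every list called. None of the 248, and none of the 9376, differed between the ages at an adjusted p of 0.05 (limma, Benjamini-Hochberg; the smallest adjusted p was 0.838). At an unadjusted p under 0.05, 2 far regions were higher in aged lists, where the background over all regions was 0.395%, and 1 was lower, where it was 0.267%. In 10 far regions (4.03%) every aged list stood above every young list, against 3.54% of all regions tested. In 5 (2.02%) every young list stood above every aged list, against 2.55%. The 4.03% and 2.02% are close to the background. The unadjusted calls rest on 2 and 1 of the 248 far regions, too few to compare with it. Evenly spread p-values would put a share of about 0.05 of regions under that limit, and only 62 of 9376 lay there. The fit thus called fewer regions than its limit allows, and its lack of calls does not show that the ages are alike.

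The far region with the lowest unadjusted p lay between Pdgfc, a growth factor gene, and Ctso, a cathepsin gene (chr3:81589059-81589737). It stood at the 93.8, 88.2 and 75.8 percentiles in aged lists, against 65.0, 22.3 and 37.6 in young lists (limma difference 44.3 ± 12.4 points, SE; unadjusted p = 0.0174, adjusted p = 0.838). The ages did not overlap there, yet the difference did not pass the adjustment. A region in the desert between Pcdh7 and G6pd2 (chr5:60042647-60043169) stood at 96.6, 93.2 and 99.7 in aged lists, against 86.5, 73.1 and 88.5 in young lists. Regions between Kcna4 and Mettl15, Ccer1 and Atp2b1, and Maf and Dynlrb2 were the next 3 with a higher aged mean, by 18.7, 22.9 and 42.1 points; the ages did not overlap in the Kcna4 and Ccer1 regions, whereas in the Maf region a young list at 82.0 exceeded the lowest aged list at 81.6.

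In the other direction, the lowest unadjusted p belonged to a region between Gdf6 and 2610301B20Rik on chromosome 4, at 81.9, 91.9 and 88.2 in aged lists and 97.1, 98.6 and 95.5 in young lists (limma difference −9.75 ± 2.96 points, SE; adjusted p = 0.838). Next was a region 113 kb from Cxcr4, the chemokine receptor that keeps stem cells in the marrow, with 95.4, 93.1 and 92.8 in aged lists and 98.2, 99.1 and 95.6 in young lists. A region 109 kb from Sox4, a transcription factor gene of early lymphoid and stem cells, followed, with 97.2, 93.9 and 90.5 in aged lists and 99.0, 99.5 and 97.9 in young lists. Both lay near the top of the scale in every list, with differences of −3.84 and −4.93 points. Regions between Kazn and Prdm2 and between Stxbp5 and Adgb completed these 5, at −28.5 and −5.83 points.

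**Figure D2:**
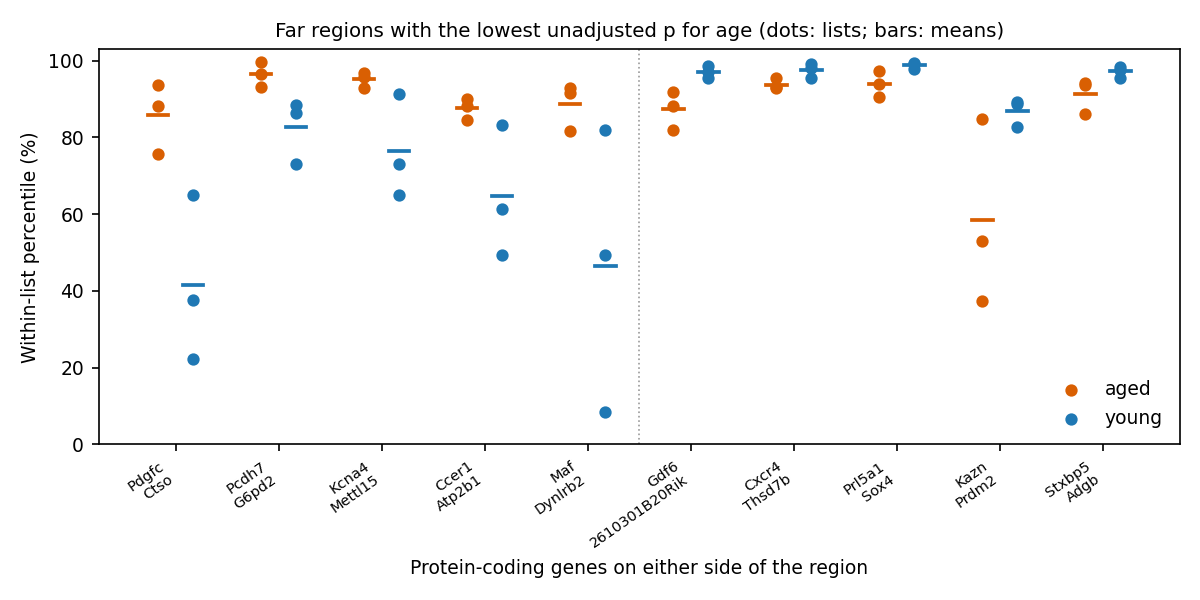
Within-list percentile (y axis, %) of the 5 far regions with the lowest unadjusted limma p in each direction, with aged lists (orange) left of young lists (blue); dots are lists and bars are means of 3. The Pdgfc to Ctso region is at the far left with aged lists at 75.8 to 93.8 and young lists at 22.3 to 65.0; none of the 10 passed the adjustment over 9376 regions.

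Far regions can exist only where protein-coding genes leave room. RefSeq genes left 1393 gene-free intervals of at least 200 kb on chromosomes 1 to 19, with 679.7 Mb that lay 100 kb or more from a protein-coding gene. The far regions numbered 2.28 per Mb of this eligible sequence, leaving out 2 regions beyond the outermost gene of chromosome 13. By chromosome the density was highest on chromosome 13 (4.21 per Mb, 143 regions), followed by chromosome 9 (3.36 per Mb, 86 regions) and chromosome 10 (3.22 per Mb, 109 regions). It was lowest on chromosome 7 (1.49 per Mb, 41 regions), chromosome 1 (1.51 per Mb, 93 regions) and chromosome 15 (1.72 per Mb, 59 regions). On chromosome 13, 10.6% of all shared regions were far regions, against 2.02% on the gene-dense chromosome 7.

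**Figure D3:**
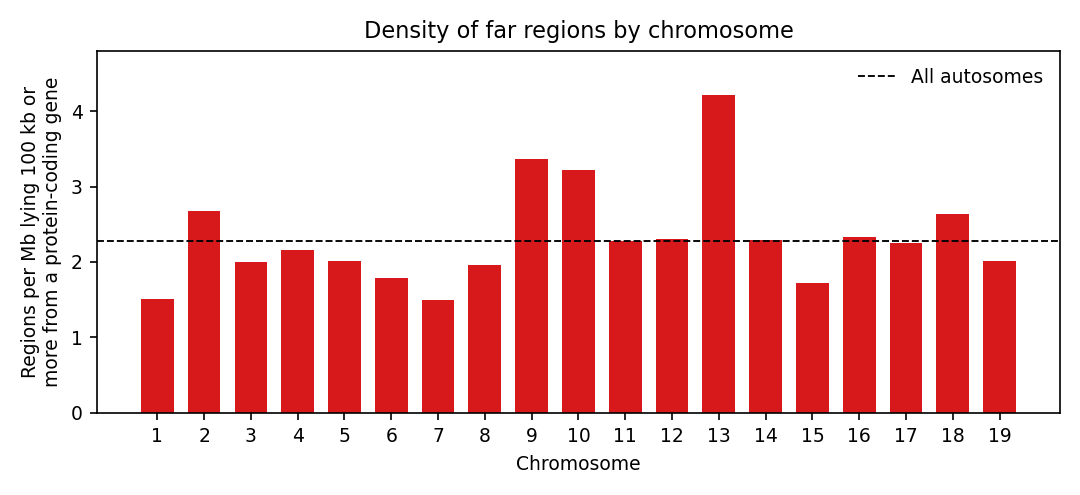
Far regions per Mb of sequence lying 100 kb or more from a protein-coding gene (y axis, from 0) on chromosomes 1 to 19; the dashed line is the density over all of them, 2.28 per Mb. Chromosome 13 stands highest at 4.21 per Mb and chromosome 7 lowest at 1.49 per Mb.

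The regions were spread unevenly over the gene-free intervals. At least 1 far region was found in 591 of the 1393 intervals (42.4%), and 802 held none. A single region was found in 260 intervals, whereas 83 intervals with 5 or more held 632 regions, 40.7% of them all. Intervals with a far region were longer, with a median of 383 kb of eligible sequence against 144 kb for those without. Size alone did not fill an interval, as 3 of the longest empty ones, Pcdh20 to Pcdh9, Olfm4 to Pcdh17 and Tenm3 to Aga, offered 4342, 4220 and 3789 kb.

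The interval with the most far regions lay between Gadd45g, a stress-induced gene that acts in DNA demethylation and cell-cycle arrest, and Diras2, a small GTPase gene, on chromosome 13. It held 15 regions in 456 kb of eligible sequence, 4 of them called in all 6 lists. Another 5 intervals held 14 each. Serp2 to Lacc1 on chromosome 14, where Lacc1 encodes a macrophage enzyme, had the smallest room of these (265 kb) and 7 regions in all 6 lists. Stt3b to Gadl1 on chromosome 9, next to a catalytic subunit of protein N-glycosylation, had 1 region in all 6 lists, and Cd83 to Jarid2 on chromosome 13, next to an activation marker of dendritic cells and a cofactor of Polycomb repressive complex 2, had 2. Id2 to Rnf144a on chromosome 12, next to an inhibitor of basic helix-loop-helix factors that many blood lineages use, had 1.

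The remaining interval with 14, Adam6a to Zfp386 on chromosome 12, is the immunoglobulin heavy-chain locus. Its variable gene segments are not annotated as protein-coding genes, and so this locus counts as gene-free by the rule although it is full of gene segments. In all, 21 far regions lay within 100 kb of an antigen-receptor segment, 14 on chromosome 12 and 7 on chromosome 14 in the T-cell receptor alpha and delta locus. Of these, 3 were called in all 6 lists, and their mean percentiles had a median of 55.3, close to the 56.7 of all far regions.

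Far regions were more widely spaced than shared regions as a whole. The median distance to the nearest other shared region was 42.5 kb for far regions, against 12.3 kb for all shared regions. Some far regions still stood close to another in the same interval. Of 959 pairs of neighbours within an interval, 520 (54.2%) were at most 50 kb apart, with a median spacing of 43.7 kb. Runs of 3 or more regions with gaps of at most 50 kb formed 109 clusters, which held 474 regions (30.6%) on 19 chromosomes. Regions in clusters had a median mean percentile of 58.9, against 55.9 for those outside, and 20.7% against 13.9% were called in all 6 lists. The number of clusters depended on the lists, and fell to between 35 and 93 when each list was left out in turn.

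The cluster with the most regions was the one between Serp2 and Lacc1, with 14 in 255 kb (chr14:76658154-76913109), starting 101 kb from Serp2 and ending 109 kb from Lacc1. Its strongest region (chr14:76787459-76788040) lay in the middle, 230 kb and 234 kb from the 2 genes, at the 98.7, 99.5 and 98.4 percentiles in aged lists and the 99.5, 98.6 and 99.7 percentiles in young lists. A second (chr14:76693866-76694579) stood at 99.6, 98.9 and 96.0 in aged lists and 99.6, 98.6 and 95.7 in young lists. Strength varied widely inside the cluster, and its weakest region had a mean percentile of 38.6. The clusters from Bcl2l11 to Spdye4c (11 regions in 167 kb, among them the Morrbid window) and from Stt3b to Gadl1 (11 in 213 kb) were weaker, with median mean percentiles of 62.1 and 53.4 and with 2 and 1 regions in all 6 lists.

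The densest of these large clusters lay between Haao and Zfp36l2, 108 kb or more from Haao and 140 kb or more from Zfp36l2. It held 10 regions in 86.8 kb (chr17:83956693-84043506). Of these, 6 were called in all 6 lists, and the median mean percentile was 85.6, the highest among the clusters of 9 or more regions. The region nearest the Haao side among these 6 (chr17:83962032-83962494) stood at 99.7, 99.1 and 98.0 in aged lists and 99.7, 98.2 and 98.6 in young lists. The next (chr17:83975755-83976319) stood at 99.6, 97.1 and 99.9 in aged lists and 97.0, 99.4 and 99.3 in young lists. In both, the ages overlapped. The weakest region of the cluster was called in 3 aged lists and 1 young list, with a mean percentile of 36.2.

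Tle3 was flanked by a large cluster on either side, 9 regions in 90.1 kb towards Rplp1 and 9 in 98.2 kb towards Uaca. Both lay nearer the other gene. The first was 246 kb from Tle3 and 159 kb from Rplp1, the second 283 kb from Tle3 and 111 kb from Uaca. The cluster next to Gadd45g had 10 regions in 115 kb, and the cluster next to Cxcr4 had 9 in 121 kb, starting 113 kb from that gene. In the Cxcr4 cluster, 2 regions were called in all 6 lists and both lay at the end nearest Cxcr4. A cluster between Ly86 and Rreb1 on chromosome 13 also had 9 regions, in 135 kb, with 4 in all 6 lists. The strongest regions of the Uaca to Tle3, Gadd45g to Diras2, Tle3 to Rplp1 and Cxcr4 to Thsd7b clusters reached mean percentiles of 99.1, 97.0, 95.6 and 95.7.

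**Figure D4:**
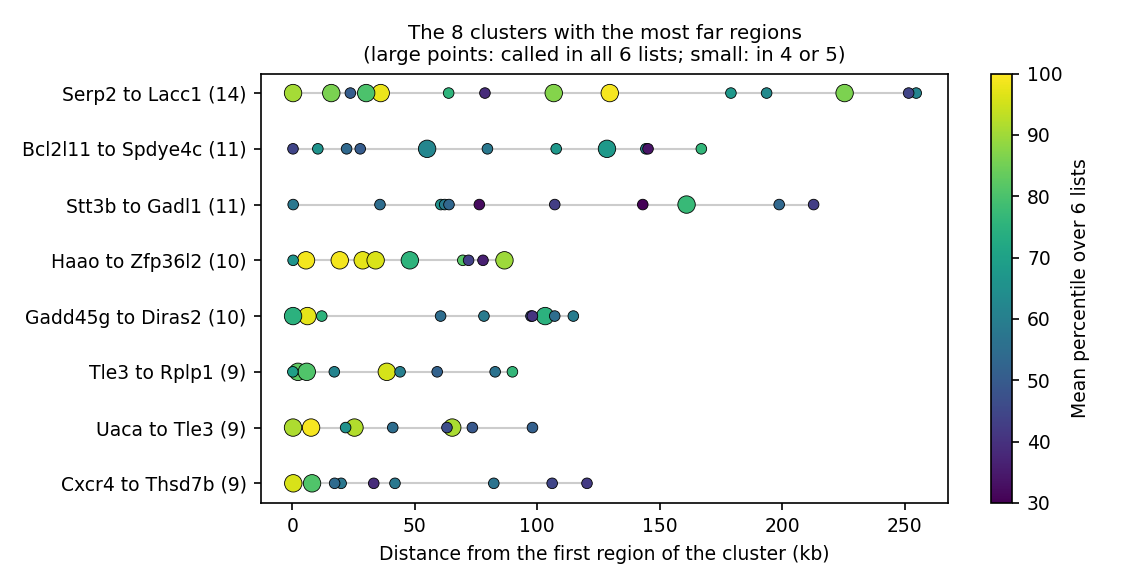
The 8 clusters with the most far regions (a ninth, Ly86 to Rreb1, ties with the last 3 at 9 regions), named by the genes on either side, with the number of regions in parentheses; the x axis is the distance from the first region (kb) and colour is the mean percentile over 6 lists. Large points are regions called in all 6 lists and small ones in 4 or 5; the Haao to Zfp36l2 cluster packs 6 large points into 86.8 kb, and the Serp2 to Lacc1 cluster spreads 7 over 255 kb.

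The genes at the edges of the intervals were grouped by lists of genes. Of 61 intervals next to a gene of the list of blood stem cell and lineage regulators, 42 (68.9%) held a far region, against 42.4% of all intervals. They held 202 far regions, or 5.73 per Mb of eligible sequence against 2.28 overall. For families of developmental transcription factors it was 69 of 129 intervals (53.5%) and 3.45 per Mb, and 32 of these intervals are also next to a blood regulator. For adhesion and synapse families it was 63 of 164 (38.4%) and 0.633 per Mb, and for olfactory, vomeronasal and taste receptors 1 of 21 (4.76%) and 0.898 per Mb. Intervals next to adhesion and synapse genes were long, with a median of 601 kb of eligible sequence, against 362 kb next to blood regulators and 224 kb overall. The lists were chosen with earlier results known, so these shares are descriptions. Leaving out each list in turn gave 59.0% to 67.2% for blood regulators and 29.2% to 39.2% for all intervals.

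**Figure D5:**
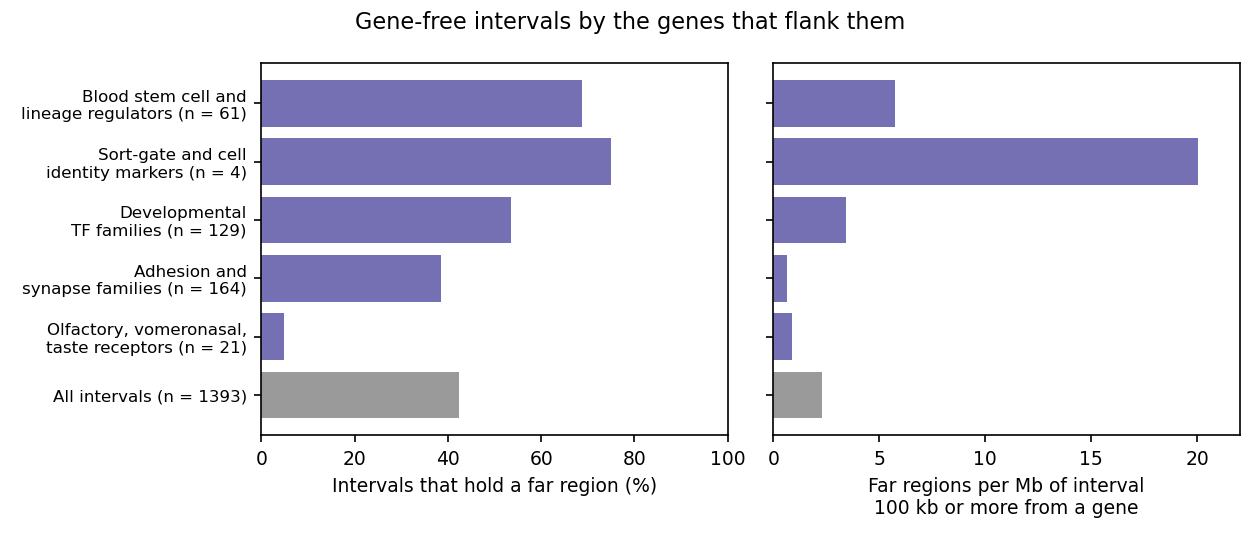
Left, the share of gene-free intervals that hold at least 1 far region (x axis, %) by the list of genes that flanks them; right, far regions per Mb of eligible sequence. Blood regulators stand at 68.9% and 5.73 per Mb and all intervals at 42.4% and 2.28 per Mb; the bar for sort-gate and identity markers rests on 4 intervals with 0.549 Mb in all.

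Next to blood regulators the counts were highest at Id2 (14 regions), Sox4 (13), Zeb2 (12) and Myc on the Gsdmc side (11), followed by Cxcr4 and Zfp36l2 (10 each) and Foxo1 and Tox (9 each). Counts are not scaled by size. The intervals at Id2, Sox4, Zeb2 and Zfp36l2 offered 1011, 597, 3497 and 135 kb of eligible sequence. In the Zeb2 interval 0 regions were called in all 6 lists. Its cluster of 4 regions lay 3211 kb from Zeb2 and 432 kb from Acvr2a. Zeb2 is a zinc-finger repressor of stem and myeloid cells, Foxo1 a factor of quiescence and lymphoid development, and Tox a factor of T-cell development. Bcl11a, the repressor of fetal globin genes, had 8, and Mycn, Tgfbr2 and Mef2c had 7 each. Runx1, a master regulator of blood stem cell emergence, had 6. No far region was found next to Foxp1, Nfia, Bach2 or Kitl, among others. Foxp1 offered 383 kb of eligible sequence and Nfia up to 591 kb on a side, whereas Bach2 offered 14.9 kb and Kitl at most 56.0 kb.

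Of the 202 regions next to blood regulators, 40 (19.8%) were called in all 6 lists, and the median mean percentile was 57.3. For the far regions of all intervals these values were 16.0% and 56.7, so regions next to blood regulators were of similar strength as a group. The strongest outside the Haao to Zfp36l2 cluster was 268 kb from Klf6 (chr13:5592452-5593084). It stood at 99.97, 96.9 and 99.0 in aged lists and 97.3, 99.2 and 98.6 in young lists. A region between Tox and Car8 (chr4:7755492-7755917) lay 764 kb from Tox and 386 kb from Car8. It stood at 99.8, 98.5 and 95.4 in aged lists and 99.8, 98.6 and 98.0 in young lists. A region between Cyria and Mycn (chr12:12496474-12497198) lay 116 kb from Cyria and 439 kb from Mycn. Its percentiles were 99.8, 99.5 and 99.3 in aged lists and 98.9, 88.8 and 99.3 in young lists. The ages overlapped in all 3 regions, and in the Mycn region young replicate 2 was the lowest value.

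A region 262 kb from Gata3, a factor of T cells that stem cells also use (chr2:9593790-9594638), stood at 99.2, 95.4 and 95.8 in aged lists and 98.9, 99.9 and 95.9 in young lists. A region at Myc (chr15:63647986-63648837) lay 1658 kb from that gene and 127 kb from Gsdmc, at 98.8, 99.0 and 96.2 in aged lists and 98.8, 88.8 and 98.6 in young lists. It belonged to a cluster of 5 regions in 54.9 kb. A blood enhancer cluster is known far downstream of Myc in mice, and whether these regions are the same elements was not tested. Others of the 20 strongest next to blood regulators were 5 in the Haao to Zfp36l2 cluster, 3 next to Sox4 and 2 next to Foxo1. The rest were another in the Klf6 interval and 1 each next to Cdk6, Cxcr4, Maf and Nr4a3. All of these others had mean percentiles from 88.4 to 98.9.

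Kit, the receptor of stem cell factor that the sort selected for, had far regions on either side, 5 towards Kdr and 3 towards Pdgfra. The 5 formed a cluster of 69.1 kb beginning 105 kb from Kit, with 2 regions in all 6 lists and a median mean percentile of 74.1. The interval from Kit to Kdr offered only 76.1 kb of eligible sequence. Mecom, another marker of the list, had no far region on the Egfem1 side. Calls at gene ends checked the label of the cells. Kit, Procr and Hlf, which stem cells use, were called at a gene end in all 6 lists and Mecom in 5, but so were Pf4 and Mpo, genes of platelets and granulocytes, in 6, and Itgam in 5. Flt3 and Cd34, which the gate excludes, were called in 4 and 5 lists, so these calls do not separate the sorted cells from mature ones.

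Most far regions were not very far. The median distance to the nearest protein-coding gene was 179 kb, with quartiles of 131 and 283 kb, and 904 regions (58.3%) were within 200 kb. Beyond 500 kb there were 138 and beyond 1 Mb 26. The median of the mean percentile lay between 54.9 and 57.8 in 6 bands of distance. The share called in all 6 lists was 18.3% at 100 to 150 kb, 13.8% at 150 to 200 kb and 17.0% at 200 to 300 kb. It was 14.5% at 300 to 500 kb, 12.5% at 500 to 1000 kb and 11.5% beyond 1000 kb, the last from 3 of 26 regions. Just inside the limit of 100 kb, regions between Olig3 and Ifngr1, Klf7 and Creb1, and Raet1d and Slc2a12 had mean percentiles of 48.3, 34.3 and 36.3. Just outside it, at 99952, 99843 and 99577 bp, regions between Tbc1d1 and Gm38457, Rasgrp1 and Thbs1, and Ubl3 and Katnal1 had 85.3, 65.5 and 41.3.

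The farthest region lay 2080 kb from Cdh20 and 2197 kb from Cntnap5b (chr1:102687519-102688023), between adhesion genes of the nervous system. It was weak, at 62.5 and 29.0 in aged replicates 2 and 3 and at 42.7 and 37.6 in young replicates 2 and 3, with no call in the first replicate of either age. Of the 5 farthest, 2 lay between Pcdh7 and G6pd2, and the stronger of these is the region named above for its higher aged values. The others lay between Lrrc4c and Iftap (4 lists, mean percentile 49.5) and between Ncam2 and Mrpl39 (5 lists, 60.4). Of the 5, only the stronger Pcdh7 region was called in all 6 lists.

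Distance from protein-coding genes did not mean distance from every gene. Of the far regions, 442 (28.5%) overlapped an annotated non-coding gene, 407 of them a lncRNA, and 154 (9.93%) lay within 1 kb of the end of one. The median distance to the nearest non-coding gene was 15.1 kb. Only 215 were 100 kb or more from every annotated gene of any kind. Several lncRNA starts fell in the clusters described above, among them Gm5122, Gm46116 and Gm33699 between Uaca and Tle3 and Gm35551 and Gm41638 between Haao and Zfp36l2. The lncRNA 5730522E02Rik, between Bcl11a and Fancl, started in a far region called in 5 lists with a mean percentile of 72.1.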

How the data were processed

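Peak lists of 3 aged and 3 young samples were used, with groups from the titles. The submitters' processing notes name the build mm10 and the programs Bowtie2, SAMtools, Picard and MACS2; versions, settings, any shift of reads for the transposase and read numbers are not given in the sources used here, so depth is unknown. Each list has its own peak boundaries, so peaks were called per sample. The deposited lists hold, per peak, a score, a fold enrichment (a ratio over background), a −log10 p and a −log10 q, all the authors' own values; only the −log10 p and, as an alternative, the fold and −log10 q were used, to rank or filter peaks within a list.

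Rows with the same interval were joined, and each list's −log10 p values were ranked to percentiles, ties sharing their average rank; a region with several peaks of a list took the highest. Genes came from a RefSeq table of GRCm38.p6, the assembly that mm10 names, which gives start and end but no strand or transcripts. Class differences were tested with exact sign-flip permutation tests over lists (Benjamini-Hochberg over 3 comparisons), ages with exact permutation tests and with limma 3.58.1 (R 4.3.3) over 9376 regions; Python 3.11.15, pandas 2.3.3 and scipy 1.17.1 were used. Scripts were tested on simulated data. Alternatives were the distance and list limits, all genes, overlap of 50 bp, a −log10 q of at least 1.3, ranks of the fold, normal scores, leaving out the widest 1% of shared regions, and leaving out each list; the mean in place of the median was added after seeing the data. Aged and young lists share replicate numbers and a number after "exp" in their titles, which the labels do not explain; the number before "exp" is also unexplained, and is 10000, 2500 and 5000 in aged titles and 2385, 2500 and 5000 in young ones. For the check of pairing, deviations of same-numbered lists correlated at 0.0604, −0.0404 and −0.0264, so the numbers were not taken as pairs.

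Named regions are the 10 strongest, the 5 farthest, those beside the limit, the 6 fullest intervals, 8 clusters by number of members (ties went to the shorter span, which left out Ly86 to Rreb1), 5 per direction of age by limma p, and up to 20 beside blood regulators. Any other region named was chosen after its values were seen, such as those with lncRNA starts, the Rtl1 to Dio3 region, and the Kit and antigen-receptor loci. The members and gene lists were chosen with earlier results of these data known. Promoter windows and microRNAs are RefSeq sequences on GRCm38.p6, matched by position; sequences of other members are not shown, as no genome was used here. A few items that this rule selects are left out of the text but remain in all counts.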

Additional observations from a re-analysis of the deposited data

How the results depend on the processing

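The number of far regions moved with its rule, to 2778 at 50 kb, 647 at 200 kb, 215 with non-coding genes included, 248 with all 6 lists and 965 with peaks of −log10 q of at least 1.3, and to between 764 and 1365 when each list was left out. The difference in strength between far regions and each class, averaged over lists, stayed negative under every setting run. With the mean in place of the median the differences were −1.92, −2.74 and −12.6 points and passed at p = 0.03125 (exact permutation test). Requiring a call in all 6 lists shrank the median differences to −0.181, −0.590 and −5.60 points. Leaving out lists gave −0.703 to −0.207, −1.47 to −0.751 and −8.85 to −6.29 points. There the exact permutation test on 5 lists cannot go below p = 0.0625. Adjusted over 3 comparisons, it gave p from 0.0625 to 0.625 against regions at 5 to 100 kb. Against regions inside genes and at gene ends it gave p from 0.0625 to 0.1875. The age difference of far regions reversed to −0.0490 without young replicate 2 and reached 9.46 points without young replicate 1; that relative to regions at 5 to 100 kb reversed to 0.123 with 50 bp of overlap and 0.243 with the mean, and ranged from −0.0669 to 0.706 with a list left out. No age test passed under any setting. The exact permutation tests could not pass, as 3 against 3 lists cannot go below p = 0.1 and fewer lists cannot go lower. For the replicate block the sign-flip permutation test cannot go below p = 0.25. With the replicate block the age differences were 1.79 (exact permutation p = 1) and −1.82 points (p = 0.5), and limma called 0 regions, with 73 at an unadjusted p under 0.05 against 62 without the block. The other limma settings also called 0 regions, with 38 to 165 at an unadjusted p under 0.05 among 9376 regions and 518 among 30130 when missing calls counted as 0. The share of intervals with a far region was 39.5% at 200 kb, 13.2% with all genes, 13.0% with all 6 lists and 31.8% with the limit on q, and 29.2% to 39.2% with a list left out. For intervals next to blood regulators it was 81.6% at 50 kb, 40% with all genes and 36.1% with all 6 lists (all intervals at 50 kb: 41.6%). The causes of these moves were not tested; fewer lists or a stricter rule leave fewer regions by construction. Read depth, the ties of young replicate 2 and lists of unequal length limit every percentile.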
